A study of Homo sapiens with 14 samples.

Results

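The subject here is a set of 10 genes for subunits of BAF, the mammalian SWI/SNF chromatin remodelling complex, in HepG2 cells given miR-124 or a negative control by transfection. The genes were ACTL6A, ACTL6B, PHF10, DPF2, SS18, SMARCA4, SMARCA2, SMARCC1, SMARCB1 and SMARCE1. They are 10 of 19775 genes that the platform annotation pairs with a probe set of their own. Members were all probe sets that the annotation gives to 1 of these symbols alone, which came to 37 of 54675 probe sets on the array. Of these, 27 probe sets of 9 genes had a mean log2 level above 6.19, the median over the array, and were tested among 27291 probe sets in all. The remaining 10, which include both probe sets of ACTL6B, were too low to be tested. A further probe set is annotated to both DDX27 and SS18 and was left out.

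HepG2 is a human line grown from a liver tumour, and all 14 arrays came from this 1 line. There were 7 arrays of miR-124 cells and 7 of control cells, 1 for each transfection at 4, 8, 16, 24, 32, 72 and 120 h. Neither a dose nor the sequence of the control is given in the sources used here, and nothing states that arrays came from separate cultures. All p-values therefore measure only the spread of these arrays, between times, which may be technical. In the paired fits that spread also holds any change of the miR-124 effect between the times averaged.

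BAF complexes use the energy of ATP to slide or evict nucleosomes. One of 2 ATPases, SMARCA4 or SMARCA2, drives a given complex, core subunits hold it together, and exchangeable subunits differ between cell types. As neural progenitors stop dividing, the complex exchanges ACTL6A for ACTL6B, PHF10 for DPF1 or DPF3, and SS18 for SS18L1. In developing neurons, miR-124 is known to lower ACTL6A messenger RNA, which allows this exchange. The series bears on whether these genes move when miR-124 is put into liver tumour cells.

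The hepatocyte markers were high in both arms, with all 9 of 9 above the filter and mean levels from 10.9 to 13.9. Their median level ran from 13.4 to 13.6 on miR-124 arrays and from 13.5 to 13.7 on control arrays. At 72 and 120 h their median ratio was -0.17, against -0.01 for all genes, and 1 of the 9, the fibrinogen gene FGB, was called lower at -0.46 (limma adjusted p = 0.00942). Of 8 neuron markers 3 were above the filter, and 0 of them were called by limma at 72 and 120 h in either direction. Of 6 blood markers 4 had a probe set with 1 symbol and 2 were above the filter, of which CD3D was called 1.44 higher on the log2 scale at 72 and 120 h. Of 7 fibroblast and endothelial markers 5 were above the filter, and PECAM1 was called 0.46 higher. In bulk RNA of this kind, fewer cells of a type and less RNA per cell cannot be told apart. One array stood apart, that of miR-124 at 4 h, with a mean small ribosomal RNA level of 11.1 against 8.70 on its control partner. Over the poly-A spikes it had 7.40, and its partner 6.05. Array precision is limited by the number of arrays.

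ACTL6A, the actin-like subunit of dividing cells, was not called changed in any window. Its 1 probe set, 202666_s_at, had log2 levels with miR-124 of 9.92, 9.81, 10.04, 9.82, 9.92, 9.28 and 9.67 in order of time. With the negative control the levels were 9.88, 9.82, 10.03, 9.87, 10.02, 9.68 and 9.60 at the same times. The arms overlapped, and the miR-124 array at 72 h was the lowest of the 14. Averaged over the 7 pairs, the log2 ratio (miR-124 minus control) was -0.06 ± 0.06 (SE), with a 95% interval from -0.20 to 0.08 and a limma adjusted p of 0.573. An exact two-sided sign-flip permutation test over the 7 pairs gave p = 0.406 (0.632 adjusted over all probe sets tested). The ratio was below 0 in 4 of 7 pairs.

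At 16, 24 and 32 h the ACTL6A ratio was -0.05, with a 95% interval from -0.27 to 0.17 (limma adjusted p = 0.878). At 72 and 120 h it was -0.16, with an interval from -0.43 to 0.11 (limma adjusted p = 0.361). The 2 late pairs differed, with -0.40 in that of 72 h and 0.07 in that of 120 h. Without the 120 h pair the late ratio was -0.40 and passed (limma adjusted p = 0.0218), and without the 72 h pair it was 0.07 (limma adjusted p = 0.660). A late value that leaves out 1 of these pairs assumes that the remaining pair varies like the earlier times.

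Over all 13127 other genes tested by their leading probe set, which is the one with the highest mean, those whose 7 ratios lay closest to ACTL6A's were ZNF844, DYNLT2, ARMCX5, MRPS11 and CISD3. Their root mean square distances ran from 0.0377 for ZNF844 to 0.0485 for CISD3, and their Pearson correlations with it over the 7 times from 0.947 to 0.975. Their 72 h ratios lay between -0.47 and -0.34, and their 120 h ratios between 0.02 and 0.13. These ratios share the same 14 arrays.

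ACTL6B, the actin-like subunit of neurons, stayed at low values. Its probe set 206014_at ran from 4.95 to 5.25 with miR-124 and from 4.94 to 5.13 with the control. The other, 206013_s_at, ran from 4.89 to 5.09 with miR-124 and from 4.88 to 5.08 with the control. The arms overlapped almost wholly in both, and the paired ratios lay between -0.18 and 0.19. Both lay below the filter, so no test was made, and detection calls are not used here.

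**Figure D1:**
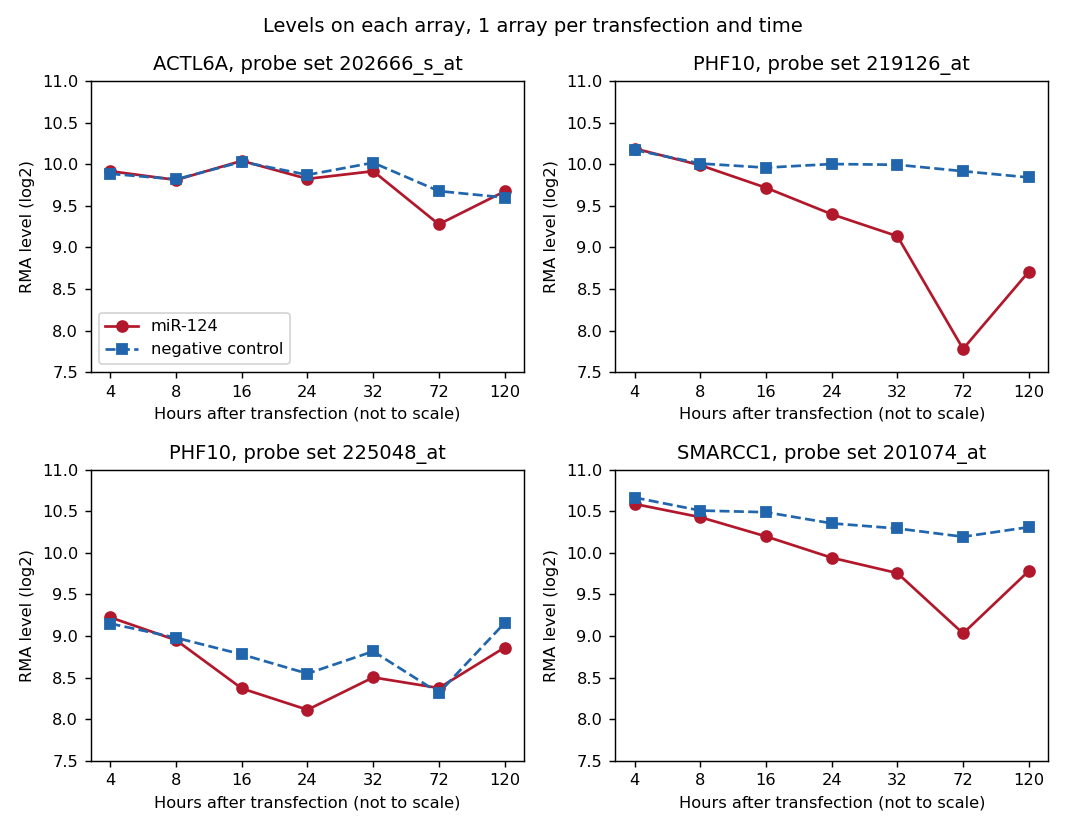
RMA log2 level (y axis) against hours after transfection (x axis, not to scale), 1 point per array, with miR-124 as circles and the negative control as squares, for ACTL6A, both probe sets of PHF10 and SMARCC1 201074_at. The PHF10 219126_at points with miR-124 lie between 7.78 and 9.72 from 16 h on, below every control point, while the ACTL6A arms overlap.

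PHF10 was the member with the lowest late ratio. It is a finger protein of the polybromo-containing form of the complex, PBAF, and of neural progenitors. Probe set 219126_at had levels with miR-124 of 10.19, 9.99, 9.72, 9.40, 9.13, 7.78 and 8.71 in order of time. In the control it had 10.17, 10.01, 9.96, 10.00, 9.99, 9.92 and 9.84. The arms matched closely at 4 and 8 h, and from 16 h each miR-124 array lay below all 7 control arrays.

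At 72 and 120 h PHF10 219126_at was 3.11-fold lower with miR-124, a log2 ratio of -1.64 ± 0.23 (SE, 2 pairs). Its 95% interval ran from -2.16 to -1.11 (limma adjusted p = 0.00232). Here and below, an SE for a window is that of the limma fit, with the spread estimated over all windows. It does not measure how well the pairs of that window agree. Single pairs, which have no spread of their own, were 4.40-fold lower at 72 h and 2.19-fold lower at 120 h. At 16 to 32 h the ratio was -0.57 ± 0.18 (SE, 3 pairs) and did not pass (limma adjusted p = 0.131). It passed there without the 72 h pair or without the 120 h pair (limma adjusted p = 0.0150 for each), and in a fit of the 6 arrays of that window alone (limma adjusted p = 0.0262). It did not pass with any other time left out. Over these fits the ratio at 16 to 32 h ran from -0.73 to -0.42, with limma adjusted p up to 0.613. The late ratio was 1.07 below that at 16 to 32 h, a difference that did not pass (limma adjusted p = 0.0993). The mean ratio of 219126_at over the 7 pairs was -0.71 ± 0.24 (SE) and did not pass (limma adjusted p = 0.118).

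The second PHF10 probe set, 225048_at, followed another course. Its levels with miR-124 were 9.22, 8.95, 8.37, 8.11, 8.50, 8.37 and 8.86 in order of time, against 9.15, 8.98, 8.78, 8.55, 8.82, 8.32 and 9.16 in the control. The miR-124 array was the lower of its pair at 8, 16, 24, 32 and 120 h, by only 0.03 at 8 h, and the higher at 4 h by 0.07 and at 72 h by 0.06. The ratio was -0.39 ± 0.08 (SE, 3 pairs) at 16 to 32 h, a call of 1.31-fold lower (limma adjusted p = 0.0397). It was -0.12 ± 0.10 at 72 and 120 h (limma adjusted p = 0.466). The middle call was lost without the pair of 4, 8, 16, 24 or 32 h, with limma adjusted p from 0.0778 to 0.293. The probe sets of PHF10 therefore disagreed at 72 h, where 219126_at had a ratio of -2.14 and 225048_at one of 0.06.

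The 250 bases before the annotated start of PHF10 are shown because it had the lowest late ratio of the members, and those of cyclin CCNB2, a mitosis gene, because the mitosis genes were low in the same arrays. The sequences are from the RefSeq promoter table for GRCh38.p14, in which 8 of the 10 members were matched. ACTL6A and SMARCC1 had no match there, so no motif count covers them. Both are written 5′ to 3′ on the gene's strand, and capitals mark matches to the motifs searched. PHF10 is at chr6:169724501-169724750 on the minus strand, and CCNB2 at chr15:59104896-59105145 on the plus strand.
PHF10: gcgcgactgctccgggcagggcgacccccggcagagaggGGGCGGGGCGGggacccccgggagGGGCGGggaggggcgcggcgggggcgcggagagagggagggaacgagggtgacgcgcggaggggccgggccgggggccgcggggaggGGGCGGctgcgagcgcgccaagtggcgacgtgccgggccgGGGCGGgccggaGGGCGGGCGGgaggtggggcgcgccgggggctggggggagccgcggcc
CCNB2: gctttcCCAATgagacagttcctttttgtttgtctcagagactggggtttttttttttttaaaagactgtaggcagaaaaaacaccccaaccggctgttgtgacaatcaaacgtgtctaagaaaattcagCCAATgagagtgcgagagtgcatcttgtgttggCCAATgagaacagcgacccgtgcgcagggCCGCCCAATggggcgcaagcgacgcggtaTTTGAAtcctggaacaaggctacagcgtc

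Motifs were searched on both strands. They were the GC box (GGGCGG), the CCAAT box (CCAAT), the cell cycle homology region of mitosis genes (TTTGAA), an E2F site (GGCGGGAA) and an ETS site (CCGGAAGT). The GC box and E2F letters can overlap. PHF10 held GC box matches alone among these, 7 of them. CCNB2 held CCAAT boxes, a GC box and TTTGAA. Over 27305 promoters of the same length, 42.3% held GGGCGG, 33% CCAAT, 13.6% TTTGAA, 3.64% CCGGAAGT and 2.77% GGCGGGAA. Among the 8 member promoters 4 held GGGCGG, in PHF10, SMARCA2, SMARCA4 and SMARCE1. CCAAT was in 5 of the 8, those of ACTL6B, DPF2, SMARCB1, SMARCE1 and SS18. The other motifs were in 0 of the 8, while TTTGAA was in 6 of 10 mitosis promoters and CCAAT in 9 of those 10. These matches describe letters in a window and not binding.

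Among genes by leading probe set, the 5 whose ratios lay closest to PHF10 219126_at were FABP1, MTHFD2L, HPR, SLC19A2 and MPC1, a comparison chosen after the values were seen. FABP1, a fatty acid binding protein of liver, was closest, with a root mean square distance of 0.119 and a Pearson correlation of 0.987 over 7 times. Its late ratios were -2.05 and -1.37.

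DPF2, the finger subunit of most non-neuronal BAF complexes, was not called. Probe set 202116_at ran from 8.35 to 8.63 with miR-124 and from 8.38 to 8.69 in the control, and the arms overlapped. Its late ratio was 0.01, with a 95% interval from -0.24 to 0.26 (limma adjusted p = 0.976).

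SS18, the subunit that neurons exchange for SS18L1, had 4 probe sets tested and 0 called by limma in any window. Their late ratios were -0.09, 0.08, 0.11 and -0.09, with limma adjusted p from 0.412 to 0.666. For 202817_s_at the miR-124 levels ran from 7.99 to 8.67 and the control levels from 8.25 to 8.81.

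The counterparts that neurons use were read from the list of other BAF subunits. SS18L1 was called 1.76-fold higher with miR-124 at 72 and 120 h, a log2 ratio of 0.82 ± 0.14 (SE, 2 pairs, limma adjusted p = 0.00471). In that window 15.7% of all genes by leading probe set were called higher. SS18L1 was not low in these cells, with a mean level of 9.55 over the 14 arrays. Its ratios were 0.05, -0.21, 0.16, 0.05, 0.07, 0.54 and 1.10 in order of time, so both late pairs were above the earlier ones. The call was lost in a fit of the 4 late arrays alone (limma adjusted p = 0.0714). DPF1 and DPF3 had late ratios of -0.08 ± 0.09 and -0.13 ± 0.08 (SE) and were not called (limma adjusted p = 0.584 for DPF1 and 0.285 for DPF3).

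**Figure D2:**
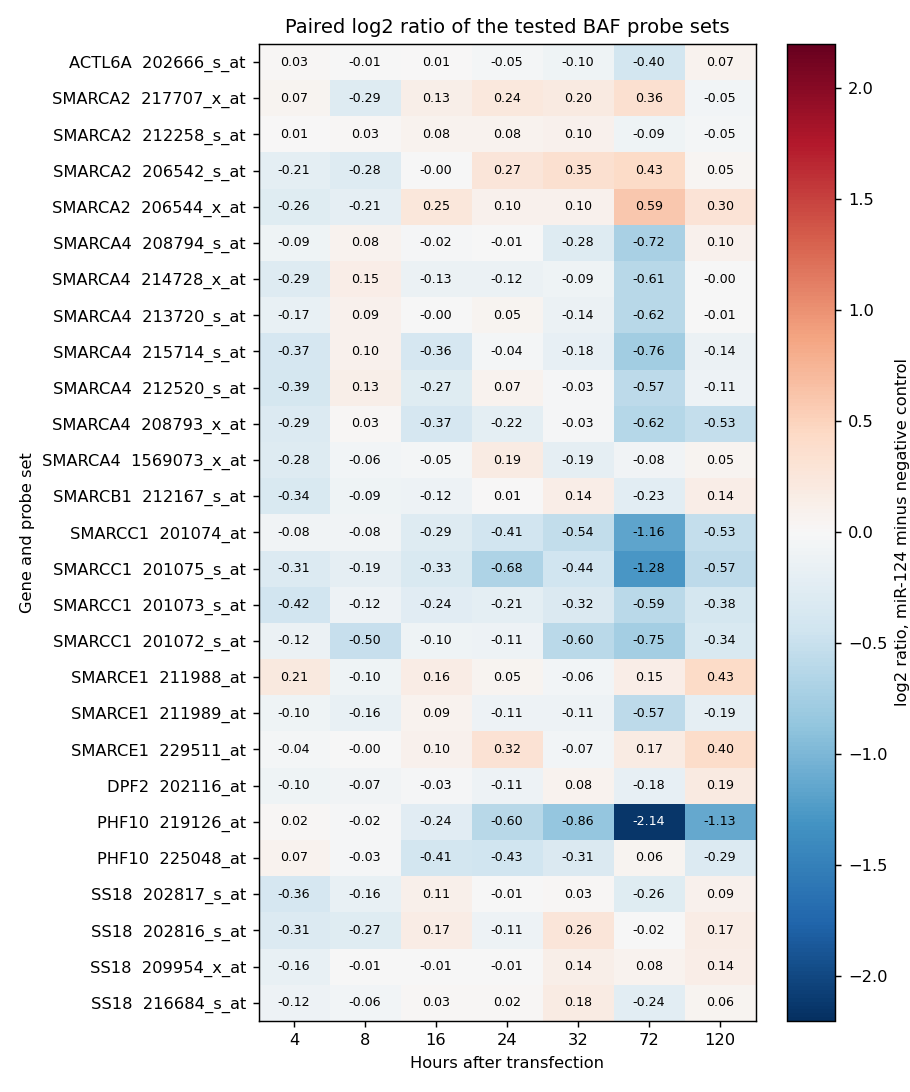
Paired log2 ratio (miR-124 minus negative control) for the 27 tested probe sets (rows, by gene) at each time (columns, hours), with blue for lower and red for higher with miR-124. The lowest cell is PHF10 219126_at at 72 h, at -2.14, and the 4 SMARCC1 rows are below 0 in every column.

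SMARCC1, a core scaffold subunit, was lower with miR-124 in 7 of 7 pairs on each of its 4 probe sets. These share a gene and arrays and are not replicates. Probe set 201074_at had levels with miR-124 of 10.59, 10.43, 10.20, 9.94, 9.76, 9.03 and 9.78 in order of time. In the control it had 10.67, 10.51, 10.49, 10.36, 10.29, 10.19 and 10.31. The pair differed little at 4 and 8 h and most at 72 h, where the ratio was -1.16.

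All 4 were called lower at 72 and 120 h. The ratio was -0.93 ± 0.16 for 201075_s_at, 1.90-fold lower (limma adjusted p = 0.0059). For 201074_at it was -0.84 ± 0.14, 1.80-fold lower (limma adjusted p = 0.00522). The other two were lower by less, 201072_s_at at -0.55 ± 0.16 (limma adjusted p = 0.0439) and 201073_s_at at -0.48 ± 0.10 (limma adjusted p = 0.012). Errors are limma SEs for the mean of 2 pairs, with the spread estimated over all windows. Each lost its call in a fit of the 4 late arrays alone, with limma adjusted p from 0.0687 to 0.142. Without the 72 h pair, 201072_s_at gave -0.34 (limma adjusted p = 0.293) and 201073_s_at gave -0.38 (limma adjusted p = 0.0801). The 201072_s_at call was also lost without the pair of 4, 8, 16 or 24 h and with arrays centred on their medians (limma adjusted p from 0.0545 to 0.0704).

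Averaged over all times, SMARCC1 201073_s_at was called, at -0.33 ± 0.06 (SE, 7 pairs, limma adjusted p = 0.0442). It was the 1 of 27 member probe sets called lower on that average, beside 1.43% of all probe sets tested. Without the pair of 16, 24, 32, 72 or 120 h it was not called (limma adjusted p from 0.0851 to 0.170). The other 3 SMARCC1 probe sets had 7-pair mean ratios of -0.36, -0.44 and -0.54, with limma adjusted p from 0.0562 to 0.0809. In the exact sign-flip permutation test over the 7 pairs each SMARCC1 probe set had p = 0.015625, the smallest that 7 pairs can give (0.176 adjusted). That p was reached by 8.89% of all probe sets tested, and 0 of them passed after adjustment.

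SMARCC2, the paralog of SMARCC1 in the complex, was called higher late, at 0.32 ± 0.09 (SE, 2 pairs, limma adjusted p = 0.0372). It was lost without the pair of 16, 24, 32, 72 or 120 h (limma adjusted p from 0.0506 to 0.112).

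SMARCA4, the ATPase of most dividing cells, had 9 probe sets, of which 7 were tested and 1 was called. Probe set 208793_x_at had levels with miR-124 of 7.73, 7.70, 7.72, 7.77, 7.81, 7.39 and 7.58 in order of time, against 8.03, 7.67, 8.08, 7.99, 7.84, 8.01 and 8.10 in the control. The miR-124 array was the lower in 6 of 7 pairs, all but that of 8 h. The late ratio was -0.57 ± 0.11 (SE, 2 pairs), 1.49-fold lower (limma adjusted p = 0.00935). A suffix of _x_at marks a probe set that may also bind related transcripts. The call was lost without the 72 h pair (limma adjusted p = 0.0531) and on the 4 late arrays alone (limma adjusted p = 0.0923).

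The other 6 tested SMARCA4 probe sets had late ratios from -0.02 to -0.45 that did not pass (limma adjusted p from 0.0937 to 0.940). At 72 h, 6 of the 7 had ratios from -0.57 to -0.76, and 1569073_x_at had -0.08. At 120 h those 6 ran from -0.53 to 0.10. For 208794_s_at, which had the highest mean, the late levels were 9.34 and 9.73 with miR-124, against 10.05 and 9.63 in the control, so the order of the arms turned between the late times.

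SMARCA2, the other ATPase, had 7 probe sets, of which 4 were tested and 1 was called higher. Probe set 206544_x_at had levels with miR-124 of 6.13, 6.03, 6.61, 6.61, 6.32, 6.80 and 6.58, against 6.39, 6.24, 6.36, 6.51, 6.22, 6.21 and 6.28 in the control. With miR-124 it was the lower of its pair at 4 and 8 h and the higher from 16 h. The late ratio was 0.45 ± 0.10 (SE, 2 pairs), 1.36-fold higher (limma adjusted p = 0.0137). The other 3 had late ratios of -0.07, 0.15 and 0.24, with limma adjusted p from 0.205 to 0.582. Without the 72 h pair the called ratio was 0.30 (limma adjusted p = 0.0966), and on the late arrays alone it did not pass (limma adjusted p = 0.181).

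SMARCE1, a core subunit with a DNA-binding HMG domain, had 3 probe sets tested, of which 1 was called. Probe set 211989_at had late levels of 8.61 and 9.08 with miR-124, against 9.19 and 9.27 in the control, and over all times it ran from 8.61 to 9.42 with miR-124 and from 9.19 to 9.52 in the control. Its late ratio was -0.38 ± 0.11 (SE, 2 pairs, limma adjusted p = 0.0381), called lower. The late ratio was 0.29 for both 211988_at and 229511_at (limma adjusted p = 0.105 for 211988_at and 0.0989 for 229511_at). The call of 211989_at was lost without any 1 of the pairs from 4 to 72 h (limma adjusted p from 0.0507 to 0.286), on the late arrays alone (limma adjusted p = 0.263), and with arrays centred on their medians (limma adjusted p = 0.0517).

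SMARCB1, a core subunit lost in rhabdoid tumours, had 3 probe sets, of which 1 was tested. Its 212167_s_at ran from 8.26 to 8.60 with miR-124 and from 8.42 to 8.62 in the control, and the arms overlapped. The late ratio was -0.04, with a 95% interval from -0.32 to 0.23 (limma adjusted p = 0.840).

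In all, 7 of the 27 tested member probe sets were called lower at 72 and 120 h, beside 11.3% of all probe sets tested, and 1 was called higher, beside 14.5%. The 7 were 4 of SMARCC1 and 1 each of PHF10, SMARCA4 and SMARCE1. The median late ratio of the members was -0.12, and that of all probe sets tested was -0.02. On the late arrays alone 1 of the 27, PHF10 219126_at, passed (limma adjusted p = 0.0378). Without the 72 h pair the late ratio was -1.13 for PHF10 219126_at, -0.53 for SMARCC1 201074_at and -0.57 for SMARCC1 201075_s_at. Without the 120 h pair these ratios were -2.14, -1.16 and -1.28. Such a fit leaves 1 pair in the window. Counts of calls on the late arrays alone and with each time left out are given below, beside those over all probe sets.

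**Figure D3:**
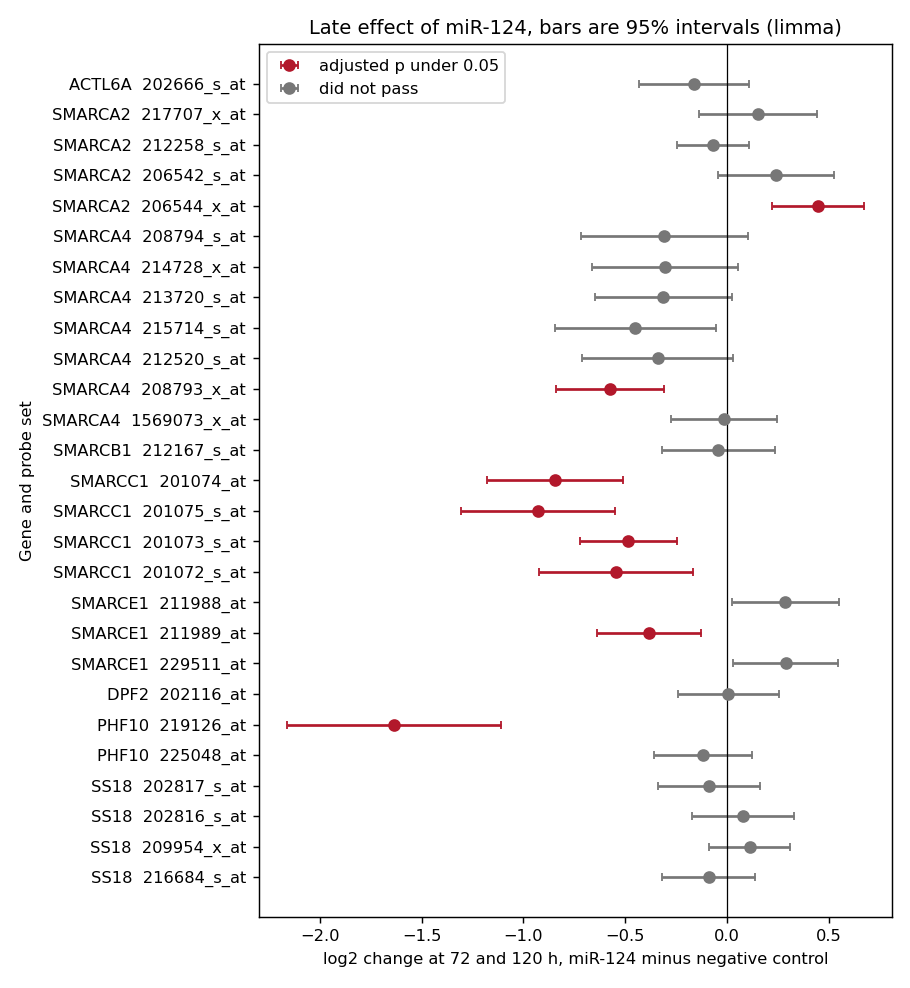
Fitted log2 change at 72 and 120 h, miR-124 minus negative control (x axis), with 95% intervals for the 27 tested probe sets (rows), coloured by whether the limma adjusted p was under 0.05. PHF10 219126_at is at -1.64, the 4 SMARCC1 probe sets are between -0.93 and -0.48, and the ACTL6A interval spans 0.

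At 16 to 32 h 1 of 27 was called lower, PHF10 225048_at, beside 3.59% of all probe sets tested. The median was -0.03 for the members and 0.02 for all. At 4 and 8 h limma called 0 members and 0% of all probe sets. An unadjusted limma p under 0.05 was found for 4 of 27 member probe sets, beside 529 of 27291 in all. The 4 were SS18 202817_s_at and 202816_s_at, SMARCC1 201073_s_at and SMARCA2 206544_x_at, and those of SS18 share a gene. The member median at 4 and 8 h was -0.11, and that of all was -0.01. Of the 27 member ratios in that window 9 changed sign without the 4 h pair and 2 without the 8 h pair. The miR-124 array at 4 h is the one that stood apart, and its part in these values was not tested. For the difference between 16 to 32 h and 4 and 8 h, limma called 0 members and 0% of all. Unadjusted limma p was under 0.05 for 4 of 27 members and 2447 of 27291 probe sets. For the late minus the middle window limma called 0 members, beside 3.3% of all probe sets called in either direction. Here 4 of 27 members and 4902 of 27291 probe sets had an unadjusted limma p under 0.05. The calls for that difference moved widely when single times were left out, and the counts for members and for all probe sets are given below.

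Other measures differed between the arms, and their part in the member values was not tested. All 12 of 12 mitosis genes were called lower with miR-124 at 72 and 120 h, with a median of -1.46. Their median level was 7.72 and 8.60 on the late miR-124 arrays and 9.70 and 9.48 on the late control arrays. The median ratio of the list was -2.07 and -0.76 in the late pairs, and between -0.11 and 0.09 at the 5 earlier times. The difference of 3′ and 5′ ACTB control probe sets, a sign of RNA quality, was 0.561, 0.418, 0.357 and 0.411 on the miR-124 arrays of 24, 32, 72 and 120 h. On the control arrays of those times it was 0.271, 0.278, 0.237 and 0.102. For GAPDH it was 0.301 and 0.199 on the late miR-124 arrays and 0.145 and 0.0311 on the late control arrays.

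**Figure D4:**
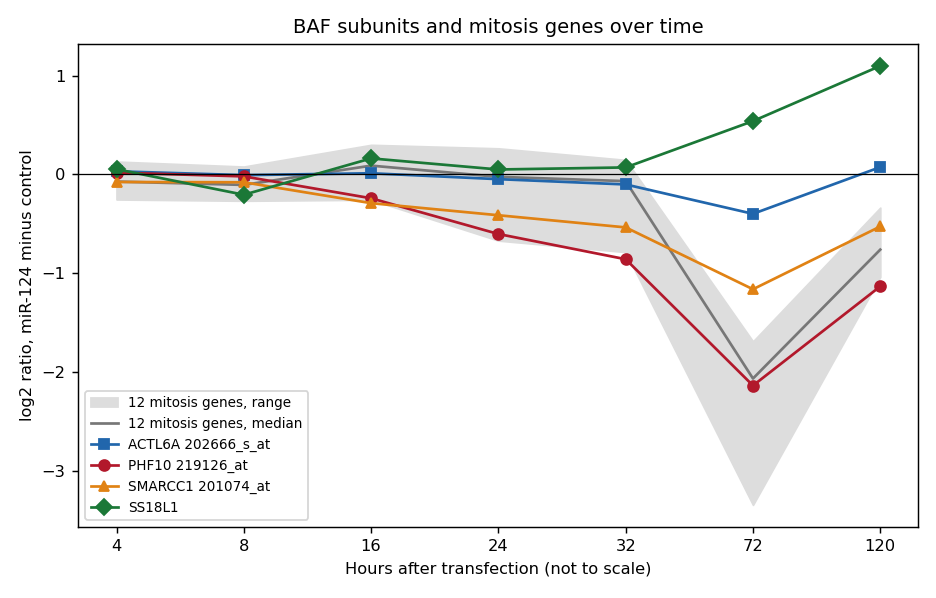
Paired log2 ratio, miR-124 minus negative control (y axis) against hours after transfection (x axis, not to scale) for ACTL6A, PHF10 219126_at, SMARCC1 201074_at and SS18L1, with the median and range of 12 mitosis genes. In the late pairs the mitosis median is -2.07 and -0.76, PHF10 is at -2.14 and -1.13, and SS18L1 is at 0.54 and 1.10.

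Few of the other BAF family genes were called. Of 21 other BAF, PBAF and ncBAF genes 20 were tested by their leading probe set, and at 72 and 120 h 1 was called lower, beside 11.7% of all genes, and 2 higher, beside 15.7%. The lower was ARID1B, a DNA-binding subunit, at -0.31 (limma adjusted p = 0.0413), on a probe set that may bind related transcripts. It was lost without the pair of 4, 8, 16, 24, 32 or 120 h (limma adjusted p from 0.057 to 0.217). The higher were SMARCC2 and SS18L1, described above. SMARCD1, a core subunit, had 0.24 ± 0.16 and ACTB, the actin of the complex, had -0.31 ± 0.13 (SE, 2 pairs), and neither passed (limma adjusted p = 0.338 for SMARCD1 and 0.112 for ACTB). At 16 to 32 h limma called 0 of these 20, beside 3.82% of all genes lower and 2.8% higher.

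ACTL6A is also a subunit of the INO80 remodeller and the TIP60 acetyltransferase complex. Of 27 genes of those complexes, 1 was called lower and 4 higher at 72 and 120 h, beside 11.7% of all genes lower and 15.7% higher. The lower was RUVBL2, an ATPase, at -0.36 (limma adjusted p = 0.0196). The higher were MEAF6 at 0.45, MORF4L1 at 0.34, BRD8 at 0.30 and DMAP1 at 0.29, with limma adjusted p from 0.00615 to 0.0404. INO80E and ING3 had late ratios of -0.25 ± 0.19 and -0.19 ± 0.23 (SE, 2 pairs) and did not pass (limma adjusted p = 0.399 for INO80E and 0.614 for ING3). On the late arrays alone each of these 5 calls was lost, with limma adjusted p from 0.151 to 0.338. BRD8 and DMAP1 lost theirs without any 1 of the 7 pairs (limma adjusted p from 0.0524 to 0.131), and MORF4L1 and RUVBL2 without that of 72 h (0.0676 for MORF4L1 and 0.118 for RUVBL2). At 16 to 32 h limma called 0 of the 27.

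Among 28 genes of other remodellers, 3 were called lower and 1 higher at 72 and 120 h, beside the same 11.7% and 15.7% of all genes. BAZ1A, a partner of the ATPase SMARCA5, was 1.89-fold lower, at -0.92 ± 0.22 (SE, 2 pairs, limma adjusted p = 0.0207). CHD1 was at -0.58 and CHD6 at -0.34 (limma adjusted p = 0.0372 for CHD1 and 0.0454 for CHD6). ATRX, a remodeller of repeats and telomeres, was called higher both at 16 to 32 h, at 0.41 ± 0.10 (SE, 3 pairs, limma adjusted p = 0.0484), and late, at 0.55 ± 0.12 (SE, 2 pairs, limma adjusted p = 0.013). HELLS, a remodeller of dividing cells, was at -1.55 ± 0.48 and did not pass (limma adjusted p = 0.0514), with late ratios of -2.82 and -0.28. The late calls of BAZ1A, CHD1, CHD6 and ATRX were lost without the 72 h pair, with limma adjusted p from 0.0797 to 0.315, and on the late arrays alone, with limma adjusted p from 0.0731 to 0.298. Those of CHD1 and CHD6 were also lost without the pair of 4, 8, 24 or 32 h, and that of CHD6 without 16 h (limma adjusted p from 0.0561 to 0.0881). CHD6 was lost too with no filter (limma adjusted p = 0.0527) and with centred arrays (limma adjusted p = 0.0584). The ATRX call at 16 to 32 h was lost without the pair of 4, 8, 16, 24 or 32 h (limma adjusted p from 0.0916 to 0.300), with no filter (limma adjusted p = 0.0514) and with the trended prior (limma adjusted p = 0.0596).

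Some members changed over the control course, in which time in culture and time since transfection cannot be told apart. Over the 7 control arrays 4 of 27 member probe sets were called with a downward slope, beside 4.4% of all probe sets tested. Slopes are in log2 units per doubling of time. They were -0.131 for SS18 202816_s_at (limma adjusted p = 0.0272), -0.110 for SS18 202817_s_at (limma adjusted p = 0.040), -0.091 for SMARCE1 211988_at (limma adjusted p = 0.0409) and -0.085 for SMARCC1 201074_at (limma adjusted p = 0.0492). SS18 202816_s_at had control levels of 8.38, 8.33, 8.07, 8.21, 8.18, 7.92 and 7.69 in order of time, and was lowest at 120 h. ACTL6A had a slope of -0.05 (limma adjusted p = 0.316). Each of the 4 calls was lost without the control array of 4, 8 or 72 h, with limma adjusted p from 0.0583 to 0.180, and 3 of the 4 without that of 16, 24 or 120 h. The median slope was -0.05 for members and 0.00 for all probe sets tested. By leading probe set 1 of the 20 other BAF genes fell, BCL7B, and of the 27 INO80 and TIP60 genes 5 fell and 1 rose, beside 4.78% of all genes called falling and 2.31% rising. Those that fell were UCHL5, EPC2, MCRS1, BRD8 and DMAP1, with slopes from -0.144 to -0.096, and INO80C rose at 0.214. Of the 28 other remodellers HELLS and MBD2 fell, 2 in all.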

How the data were processed

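HepG2 cells given miR-124 or a negative control were profiled on one-colour oligonucleotide arrays, 14 in all. The authors deposited log2 values per probe set. RMA is named in the submitters' processing notes, and its version and options are not given in the sources used here. Since RMA equalises the distributions, a shift in total messenger RNA per cell is not visible. Values ran from 2.93 to 14.4, and the log2 scale was taken from this range. Gene symbols came from the platform annotation, and all 37 member probe sets matched the reference gene table by gene identifier.

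Two-sided limma tests (version 3.58.1 in R 4.3.3, with lmFit followed by eBayes, Benjamini-Hochberg adjusted, threshold 0.05) were made on 27291 probe sets, which left out the 62 control probe sets and those not above the median mean. The overall effect had time as a block (6 residual degrees of freedom). The windows of 4 and 8 h, 16 to 32 h, and 72 and 120 h shared 1 fit (4 residual degrees of freedom), and the control slope used log2 of time (5). The pairing by time comes from the labels, and the arrays of a pair deviated together, with correlations from 0.215 to 0.466. The fits were tested on simulated data. Alternatives were no filter, 1 probe set per gene, arrays centred on their medians, a trended prior, a fit without the block, windows on their own arrays, a 1.5-fold minimum and leaving out each time. Python 3.11.15 with matplotlib 3.10.9 drew the figures.

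The members and gene lists were chosen with earlier results of these data known. All member probe sets are accounted for. From each of the 3 lists of other BAF, INO80 and TIP60, and other remodeller genes, the 4 with the largest overall effect were named, with DPF1, DPF3 and SS18L1 always. Marker lists are given as counts and medians. Called genes of small counts, in these and the marker lists, were named after their values were seen, and CCNB2 was likewise chosen. The mature sequence of miR-124 is not used here.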

Additional observations from a re-analysis of the deposited data

Results flagged for a closer look

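Values that stood far from the other 6 of their kind were looked for in 111 groups of 7 levels or paired ratios of the member probe sets, by the gap to the nearest value against the whole range. There were 10 such values. Chance gives about 1 in 20 groups of independent draws. These groups share arrays and follow a time course, so that rate need not hold for them. At 72 h the paired ratio stood apart, low, for 4 probe sets. It was -0.40 for ACTL6A 202666_s_at, -0.62 for SMARCA4 213720_s_at, -1.16 for SMARCC1 201074_at and -0.57 for SMARCE1 211989_at. For that SMARCE1 probe set the miR-124 level at 72 h, 8.61, also stood below the other 6.

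At 32 h SMARCB1 228898_s_at had a ratio of 0.42, above the others, with a control level of 5.50, below the others. SMARCA2 228926_s_at had its lowest miR-124 level, 5.08, at 32 h. These probe sets lay below the filter and were not tested. At 120 h the control array was apart for SMARCA2 206543_at, high at 5.75, also below the filter, and for SS18 209954_x_at, low at 7.12.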

How the results depend on the processing

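With 1 array per transfection and time, the late window rests on 2 pairs, and a single time has no spread of its own. A late fit without 72 h or without 120 h therefore takes its spread from the earlier times. In simulated data at this size, 59% of log2 changes of 1 and 89% of changes of 2 were recovered at 72 and 120 h, over 27291 probe sets. Only 100 probe sets of each size were changed there, whereas 7030 were called late in the real data. The simulation also held no time effects, so its rates need not hold for the late test here. Centring arrays on their medians moved the paired ratios by -0.02 to 0.03. Without the time pairing as a block 676 probe sets were called over all times, against 452 with it, and SMARCC1 201073_s_at again passed (limma adjusted p = 0.0445).

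Over all times, 1 probe set per gene gave 1 call and 0 members, and a 1.5-fold minimum gave 243 and 0. At 16 to 32 h, with 1656 calls, 1 probe set per gene gave 1028 and 0 members, the trended prior 0 members, and the window's own arrays 3402 and 5 members. At 72 and 120 h, with 7030 calls, 1 probe set per gene gave 3822 and 2 members, and the window's own arrays 1308 and 1 member. For the control slope, with 1826 calls, 1 probe set per gene gave 1077, and the trended prior left 2 members. The fall in all calls with 1 probe set per gene comes in part from fewer probe sets tested. The member calls over all times and at 16 to 32 h were of SMARCC1 201073_s_at and PHF10 225048_at. Neither is the leading probe set of its gene, so neither was in that fit. Of the 9 leading member probe sets 0 lost a call there. SMARCC1 201073_s_at was 1.25-fold lower over all times, so a 1.5-fold minimum had to leave it out. The causes of the others were not tested.

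Leaving out each time in turn gave 0 to 1788 calls and 0 to 3 members over all times, and 0 to 3609 and 0 to 4 members at 16 to 32 h. At 72 and 120 h it gave 5234 to 8607, with 3 to 13 members. The change from early to middle had 0 to 69 calls and that from middle to late 71 to 3316 (0 to 6 members, the 6 without 120 h). The control slope had 289 to 1891 calls and 0 to 3 members. The mean ACTL6A ratio ran from -0.086 to -0.007, and its late ratio from -0.40 without 120 h to 0.0734 without 72 h, a reversal.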
